A study of Komagataella pastoris with 4 samples.

Results

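The carnitine acetyl shuttle of the methylotrophic yeast Pichia pastoris (Komagataella pastoris in the labels) is described here through 4 genes of 5427 in the deposited count table, 3 carnitine acetyltransferases and 1 carnitine carrier. They are gene4293, described in the table as a carnitine acetyl-CoA transferase found in mitochondria and peroxisomes, gene890, an outer mitochondrial carnitine acetyltransferase, gene3523, a carnitine acetyltransferase with no stated location, and gene2069, the mitochondrial carnitine carrier Crc1. All 4 are protein-coding rows, and they are the 4 rows of the table whose description holds the word carnitine. They were chosen by these descriptions with their counts already known, above all their high values in the library labelled as an Mxr1 deletion, so every value from that library is a description and supports nothing further. The table gives no coordinates and no sequence.

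Acetyl-CoA does not cross the membranes of mitochondria and peroxisomes. A carnitine acetyltransferase moves the acetyl group from coenzyme A to carnitine, Crc1 carries acetylcarnitine through the inner mitochondrial membrane in exchange for carnitine, and a second acetyltransferase inside gives the acetyl group back to coenzyme A. In budding yeast the enzymes are Cat2, of peroxisomes and mitochondria, Yat1, at the outer mitochondrial membrane, and Yat2, and the shuttle is known for bringing acetyl units from ethanol, acetate or fatty acids to the mitochondria. Budding yeast makes no carnitine and takes it from the medium. Whether carnitine was in the medium here is not stated in the labels.

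RNA was sequenced from 4 strains, each a histidine auxotroph kept on methanol in minimal medium for 14 h. The groups were a deletion mutant of Mxr1, a zinc-finger transcription factor of methanol genes, a deletion mutant of Gal83, a regulatory subunit of the Snf1 kinase, a deletion mutant of Gcn5, the histone acetyltransferase of SAGA, and the wild type GS115. The 3 mutants carry resistance to Zeocin and the wild type does not, so the marker and the deletion cannot be told apart. With 1 library per strain nothing has a replicate check, no test between strains was possible, and each comparison is between 2 libraries. Total counts ran from 30582006 to 48539082 per library. The row of the Gcn5-like acetyltransferase (gene3103) had 3 counts in the Gcn5-deletion library against 2570 in the wild type. The Snf1 beta-subunit row taken as Gal83 (gene1360) had 8 counts in the Gal83-deletion library against 5215 in the wild type. No row is described as Mxr1, and a carbon source-responsive zinc-finger row that may be it (gene4868, singled out with its values known) had 11606 counts in the library labelled Mxr1 deletion against 9114 in the wild type. That library is therefore called Mxr1-labelled throughout, and the directions given for it are only as good as that label.

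The 4 carnitine genes were far higher in the Mxr1-labelled library than in the wild type, by 11.3-fold to 87.7-fold. In the Gal83-deletion library they parted, with the transferase gene4293 higher and the carrier gene2069 lower than in the wild type. In the Gcn5-deletion library none of the 4 differed from the wild type by more than 1.24-fold with the scaling used here, and with total counts the largest difference was log2 -0.64, for gene2069. In bulk cultures, more cells with a transcript and more of it per cell cannot be told apart. Levels are counts per 1000000 (CPM) with TMM scaling (trimmed mean of M-values), a factor that evens out libraries on the genes that differ least. Ratios are log2 ratios of the same scaled counts with 0.5 added to each count, and brackets hold the exact 95% counting interval, which leaves out variation between cultures. A difference was called where it reached 2-fold and the interval did not include equality.

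**Figure D1:**
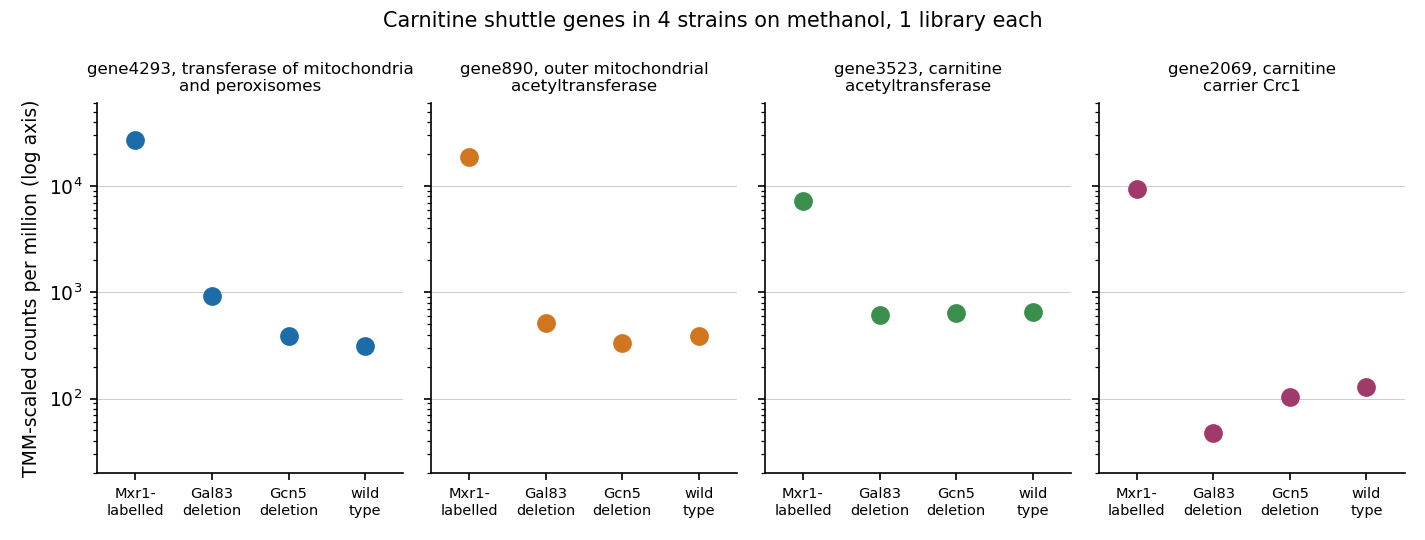
TMM-scaled CPM on a log axis for each of the 4 carnitine genes, 1 point per library, with no error bar because each strain had 1 library. In all 4 panels the Mxr1-labelled point is highest, between 7300 and 27369 CPM, and the other 3 points lie between 47.0 and 927 CPM.

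The transferase of mitochondria and peroxisomes, gene4293, had 817603 counts in the Mxr1-labelled and 34202 in the Gal83-deletion library, with 10418 in the Gcn5-deletion library and 16667 in the wild type. On the scaled level these were 27369, 927, 388 and 312 CPM in the same order. The gene was highest in the Mxr1-labelled library, next highest in the Gal83-deletion library, and the Gcn5-deletion and wild-type levels were close. Set against the wild type its log2 ratio was 6.45 [6.43 to 6.48] in the Mxr1-labelled library, the third highest of the 5420 genes compared. For the Gal83 deletion the log2 ratio was 1.57 [1.54 to 1.6], or 2.97-fold higher. In the Gcn5-deletion library it was 0.31 [0.28 to 0.35], which became -0.02 when libraries were scaled by their total counts, so no direction is given for it.

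The outer mitochondrial acetyltransferase, gene890, had 559912 counts in the Mxr1-labelled and 18972 in the Gal83-deletion library, with 8952 in the Gcn5-deletion library and 20870 in the wild type. The scaled levels were 18743, 514, 333 and 391 CPM. Mxr1-labelled against wild type, its log2 ratio was 5.58 [5.56 to 5.60], 48.0-fold, at rank 9 of 5420 from the top. The other libraries lay near the wild type, at log2 0.40 [0.37 to 0.42] for the Gal83 deletion and -0.23 [-0.27 to -0.19] for the Gcn5 deletion, and neither was called. The description also names this enzyme as ethanol-inducible, a property known from its budding yeast counterpart.

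The third acetyltransferase, gene3523, had 218084 counts in the Mxr1-labelled and 22654 in the Gal83-deletion library, with 17258 in the Gcn5-deletion library and 34602 in the wild type. It had the highest wild-type count of the 4 genes and the smallest ratio in the Mxr1-labelled library, at log2 3.49 [3.48 to 3.51], or 11.3-fold, rank 26 from the top. Its scaled levels outside the Mxr1-labelled library were 614 CPM in the Gal83-deletion library, 643 CPM in the Gcn5-deletion library and 648 CPM in the wild type. The log2 ratio of the Gcn5-deletion library to the wild type was -0.01 [-0.04 to 0.01], an interval that held equality with this scaling. It did not hold equality with total counts, at -0.34 [-0.37 to -0.32], or with upper-quartile factors, at -0.03 [-0.06 to -0.0076], and the ratio was uncalled in each. The Gal83-deletion library was at log2 -0.08 [-0.10 to -0.05], a value that changed sign to 0.06 with total counts. The 1 member that stood apart in the Mxr1-labelled library was gene3523. The term is for genes at least 2-fold away from all the other libraries while those lay within 1.5-fold of one another. It thus turns on the spread of the other libraries, and gene890 missed it narrowly, at 1.54-fold between the Gal83-deletion and Gcn5-deletion libraries. Over all genes 62 stood apart as higher in the Mxr1-labelled library and 45 as lower.

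The carrier Crc1, gene2069, had 281013 counts in the Mxr1-labelled and 1735 in the Gal83-deletion library, with 2795 in the Gcn5-deletion library and 6862 in the wild type. The scaled levels were 9407, 47.0, 104 and 128 CPM. It was highest in the Mxr1-labelled library, like the acetyltransferases, but lowest in the Gal83-deletion library, where gene4293 and gene890 were at their second highest. Set against the wild type its log2 ratio was 6.19 [6.16 to 6.23], or 73.2-fold, in the Mxr1-labelled library, the fourth highest of all genes and directly below gene4293. Without Gal83 it was -1.45 [-1.53 to -1.37], or 2.73-fold lower. In the Gcn5-deletion library it was -0.30 [-0.37 to -0.24], which was not called.

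All 4 members were thus called higher in the Mxr1-labelled library than in the wild type, where 7.97% of the 5420 genes were called higher and 10.3% lower. Because this contrast helped to choose the members, nothing is read from that count. In the Gal83-deletion library 1 of 4 was called higher and 1 lower, against 11.0% and 10.7% of all genes, and the median log2 ratio of the members was 0.16 against 0.01 for all genes. In the Gcn5-deletion library 0 of 4 were called in either direction, against 4.06% called higher and 5.04% lower over all genes, with a median of -0.12 against -0.01. With 4 genes, these low counts are not read as a result about the members.

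The mutant libraries were also set against each other, which leaves the wild-type library out. All 4 members were called higher in the Mxr1-labelled library than in the Gal83-deletion library, where 12.1% of all genes were, and higher than in the Gcn5-deletion library, where 8.08% were. Against the Gal83 deletion the log2 ratio was 7.64 [7.58 to 7.71] for the carrier gene2069, the second highest of all genes, 5.19 [5.17 to 5.21] for gene890, 4.88 [4.87 to 4.90] for gene4293 and 3.57 [3.55 to 3.59] for gene3523. Against the Gcn5 deletion the log2 ratio was 6.50 [6.44 to 6.55] for gene2069, again the second highest, 6.14 [6.11 to 6.17] for gene4293, 5.81 [5.78 to 5.84] for gene890 and 3.51 [3.48 to 3.53] for gene3523. The Mxr1-labelled counts enter all of these and the wild-type contrast alike, so the ratios are not separate evidence of its high level. In both of these contrasts the carrier had the largest ratio of the 4 genes, while against the wild type gene4293 had.

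The pair that shares neither the Mxr1-labelled nor the wild-type library is Gal83 deletion against Gcn5 deletion. In it gene4293 was 2.39-fold higher in the Gal83-deletion library, log2 1.26 [1.23 to 1.29], and gene2069 was 2.21-fold lower, log2 -1.15 [-1.23 to -1.06]. Over all genes 12.8% were called higher and 12.7% lower in this pair. The log2 ratio was 0.63 [0.59 to 0.66] for gene890 and -0.07 [-0.09 to -0.04] for gene3523, both uncalled. Total counts brought the median of all genes in this pair to 0.49; gene890 was then called higher at 1.09, gene3523 changed sign to 0.40, and gene2069 lost its call at -0.68.

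**Figure D2:**
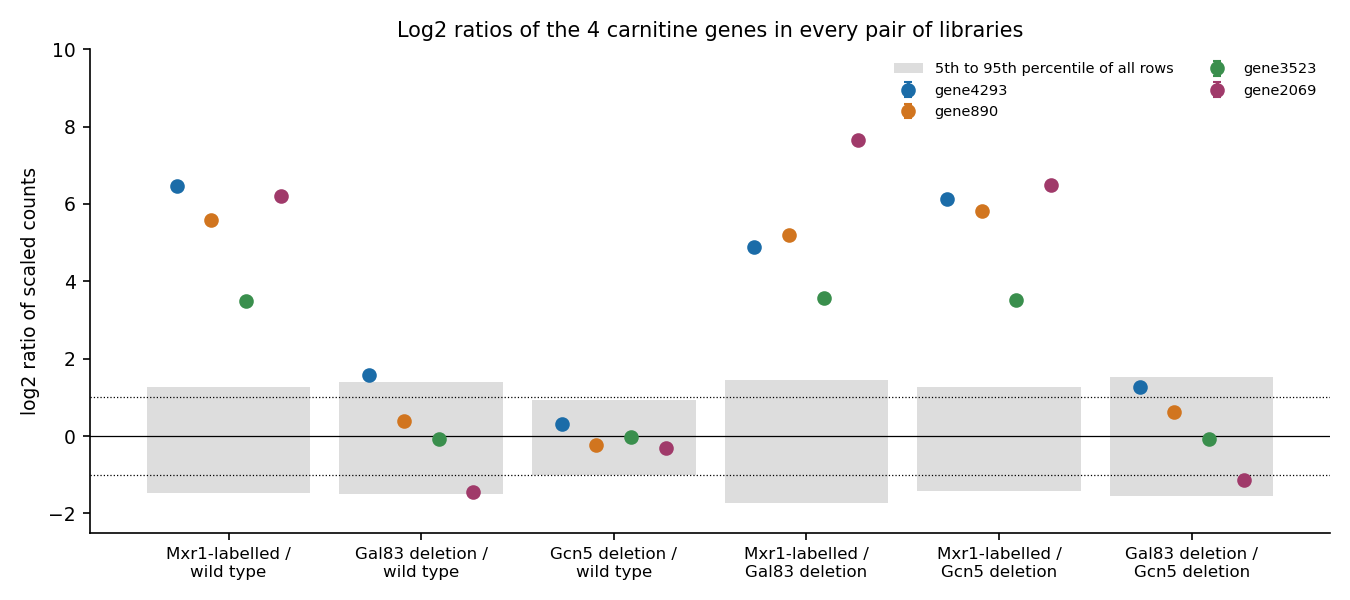
Log2 ratios of scaled counts for the 4 carnitine genes in each of the 6 pairs of libraries, the first-named library over the second, with exact 95% counting intervals that are mostly smaller than the points. Grey bars span the 5th to 95th percentile of all 5420 genes and dotted lines mark 2-fold; the 3 pairs with the Mxr1-labelled library have all points at 3.49 or above, and the Gal83 deletion over the wild type and over the Gcn5 deletion has points on both sides of 0.

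The 4 genes together took 5.42% of all counts in the Mxr1-labelled library [5.41 to 5.42, exact binomial 95% interval], 0.254% [0.252 to 0.255] in the Gal83-deletion library, 0.128% [0.127 to 0.130] in the Gcn5-deletion library and 0.163% [0.162 to 0.164] in the wild type. These are shares of counts and not per length, since the table gives no gene lengths. The make-up of that sum differed between strains. The transferase gene4293 gave 43.6% of it in the Mxr1-labelled, 44.1% in the Gal83-deletion, 26.4% in the Gcn5-deletion and 21.1% in the wild-type library. The share of gene3523 was 11.6%, 29.2%, 43.8% and 43.8% in the same order. The carrier gene2069 made up 15.0%, 2.24%, 7.09% and 8.69%, and gene890 stayed between 22.7% and 29.8% in the 4 libraries.

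**Figure D3:**
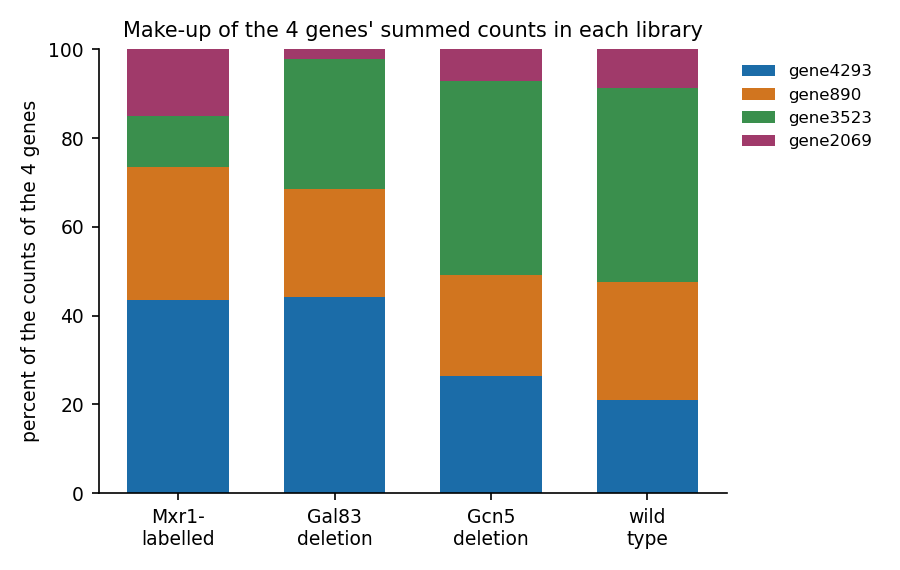
Stacked bars give each gene's percent of the summed counts of the 4 carnitine genes in each library, as counts and not per length. The gene3523 part is 11.6% in the Mxr1-labelled and 43.8% in the Gcn5-deletion and wild-type bars, and the gene2069 part is 2.24% in the Gal83-deletion bar.

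How 2 genes moved against each other does not depend on how the libraries are scaled, nor on gene length. The ratio of gene4293 counts to gene2069 counts, transferase to carrier, was 2.91 in the Mxr1-labelled library and 2.43 in the wild type, a change of 0.26 [0.22 to 0.30] on the log2 scale. Without Gal83 the same ratio was 19.7 against 2.43 in the wild type, a log2 change of 3.02 [2.94 to 3.10], or 8.12-fold. In the Gcn5-deletion library it was 3.73 against 2.43, a log2 change of 0.62 [0.55 to 0.69]. The intervals are approximate 95% intervals for counting error on the log odds.

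Among the acetyltransferases, the ratio of gene4293 to gene3523 counts was 3.75 in the Mxr1-labelled library and 0.482 in the wild type, a log2 change of 2.96 [2.93 to 2.99]. Without Gal83 it was 1.51, a log2 change from the wild type of 1.65 [1.61 to 1.68]. The ratio of gene4293 to gene890 was 1.46 in the Mxr1-labelled, 1.80 in the Gal83-deletion, 1.16 in the Gcn5-deletion and 0.799 in the wild-type library, so gene4293 gained on gene890 in each mutant library. The corresponding log2 changes were 0.87 [0.84 to 0.90], 1.17 [1.14 to 1.21] and 0.54 [0.49 to 0.59]. These changes share the wild-type ratio, so they are not separate evidence of a gain. The outer mitochondrial enzyme and the carrier kept nearly the same ratio without Gcn5, 3.20 against 3.04 in the wild type, a log2 change of 0.07 [0.0018 to 0.15]. The acetyltransferases are related proteins, and whether the authors' counting split reads between them was not tested.

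The rows whose pattern was most like that of the members were found by the Euclidean distance between their 3 log2 ratios to the wild type, over the 4 libraries. All of these ratios share the wild-type library, and the distance is a description only. The members lay 1.56 to 3.40 apart, with gene4293 and gene890 the closest pair and gene4293 and gene3523 the farthest. Nearest to gene4293 was isocitrate lyase (gene1180), the entry enzyme of the glyoxylate cycle, at a distance of 0.81. Isocitrate lyase had log2 ratios of 5.66, 1.44 and 0.28 in the Mxr1-labelled, the Gal83-deletion and the Gcn5-deletion library, beside 6.45, 1.57 and 0.31 for gene4293. Next came acetyl-CoA synthetase 2 (gene3907) at 1.35, a row described as phenylpyruvate decarboxylase (gene4266) at 1.54, gene890 at 1.56 and an aldehyde dehydrogenase row (gene3263) at 1.90.

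Nearest to gene890 was the succinate/fumarate transporter of mitochondria (gene4652), which in budding yeast brings succinate of the glyoxylate cycle into the organelle, at a distance of 0.99. It had log2 ratios of 4.67, 0.03 and -0.19, beside 5.58, 0.40 and -0.23 for gene890. Isocitrate lyase followed at 1.16, citrate synthase (gene444) at 1.41, malate synthase 2 (gene5220) at 1.46 and acetyl-CoA synthetase 1 (gene2210) at 1.54. Nearest to the carrier gene2069 were a transmembrane row for ammonia export (gene483) at 1.59, acetyl-CoA synthetase 1 at 1.75, malate synthase 2 and an acid protease row (gene4025) at 1.81 each, and gene890 at 1.95. The lowest log2 ratio of these 5 rows in the Gal83-deletion library was -0.62, against -1.45 for gene2069, so none of the 5 was as low there as the carrier.

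Nearest to gene3523 was phosphopantothenoylcysteine synthetase (gene1893), an enzyme of coenzyme A synthesis, at 0.32, with log2 ratios of 3.20, -0.04 and -0.13 beside 3.49, -0.08 and -0.01. The others were a gamma-tubulin complex row (gene2068) at 0.49, an enolase C-terminal domain row (gene891) at 0.60, the mitochondrial carrier YHM1/SHM1 (gene4075) at 0.61 and RIF1 (gene481) at 0.64. Of these, gene2068 and gene891 are the table neighbours of gene2069 and gene890, and their values are given among the other observations.

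Nearest to the mean of the 4 members, the members themselves left out, was gene4652 at 0.78, then gene5220 at 1.19, gene2210 at 1.22, gene1180 at 1.39, gene444 at 1.41 and gene4025 at 1.42. The other 4 of the 10 were a cyclic-nucleotide phosphodiesterase row (gene5221) at 1.46, gene483 at 1.72, gene3263 at 1.75 and a dioxygenase row for sulfonates (gene3994) at 1.86. All 10 had log2 ratios of 4.24 or more in the Mxr1-labelled library, where high values follow from picking rows close to the members' mean.

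**Figure D4:**
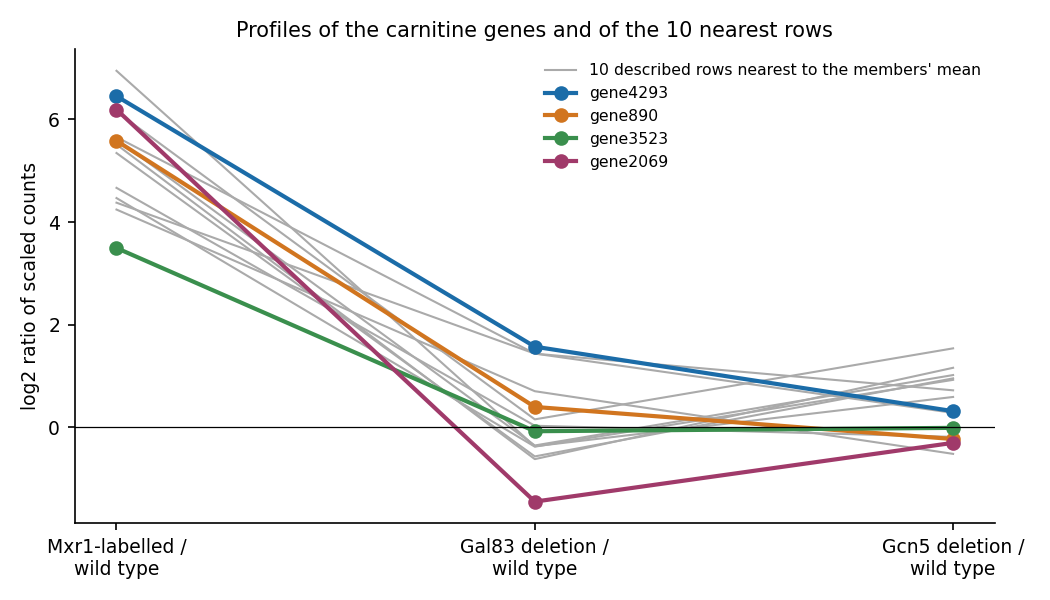
Lines join the log2 ratios to the wild type in the 3 mutant libraries, coloured for the 4 carnitine genes and grey for the 10 described rows nearest to their mean. All lines are at 3.49 or above in the Mxr1-labelled library; without Gal83 the carrier gene2069, at -1.45, lies below every grey line.

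Genes of the pathways that feed or use the shuttle were taken from lists of description patterns, beside a median log2 ratio over all genes of -0.01, 0.01 and -0.01 in the Mxr1-labelled, the Gal83-deletion and the Gcn5-deletion library. Of all genes, 7.97%, 11.0% and 4.06% were called higher and 10.3%, 10.7% and 5.04% lower, in the same order. These shares are the background for the counts of every list below, and counts near them are not read as results. The list of acetate activation had 3 rows. The acetyl-CoA synthetases gene3907 and gene2210 make acetyl-CoA, while the acetyl-CoA hydrolase row (gene4076) by its name splits it. All 3 were called higher in the Mxr1-labelled library, at log2 5.73 for gene3907, 5.35 for gene2210 and 2.52 for gene4076. In the mutants without Gal83 and without Gcn5, 1 of the 3 was called higher in each and 0 lower (with total counts 1 lower without Gcn5). Without Gal83, synthetase gene3907 was called higher at log2 1.90, while gene2210 was at -0.57 and gene4076 at 0.58. Without Gcn5, gene3907 was called higher at 1.40, gene2210 was at 0.95 and gene4076 at -0.70. The glyoxylate list had 7 rows, of which 2 were higher and 2 lower in the Mxr1-labelled library. Its patterns also took in rows that are not glyoxylate cycle enzymes, so these counts are not read as a result about that pathway. The higher ones were isocitrate lyase and malate synthase 2, and the lower ones malate synthase G (gene1316, log2 -1.48) and a 2-oxodicarboxylate carrier (gene4327, -2.09). Also in the list were an isopropylmalate synthase of leucine synthesis (gene2609, log2 0.87) and the dicarboxylate carriers gene4359 (log2 0.63) and gene4440 (0.65), which were not called. The carriers gene4327, gene4359 and gene4440 are counted again in the list of mitochondrial carriers. Of the 7 rows, 2 were higher and 1 lower (0 lower with total counts) in the Gal83-deletion library, where isocitrate lyase was called higher at 1.44 and malate synthase 2 was at -0.36, and without Gcn5 1 was higher and 1 lower (0 and 2 with total counts, 0 and 1 with upper-quartile factors).

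Beyond Crc1, the list of mitochondrial carriers and transporters had 33 rows, with a median log2 ratio of -0.22 in the Mxr1-labelled library, 4 called higher and 6 lower. Crc1, at log2 6.19, lay above all 33, but it was chosen with its high value in this library known, so the order is a description only. The highest were the succinate/fumarate transporter, 25.4-fold, YHM1/SHM1 (gene4075), 10.8-fold, and a carrier for the gathering of coenzyme A in the matrix (gene266), 7.14-fold. The lowest were the 2-oxodicarboxylate carrier, a calcium-binding carrier (gene2492, log2 -1.83) and an NAD+ transporter (gene4262, log2 -1.22). In the Gal83-deletion library 6 of the 33 were higher and 5 lower (3 lower with total counts), against 11.0% and 10.7% of all genes. In the Gcn5-deletion library 0 were higher and 3 lower (9 lower with total counts), against 4.06% and 5.04%.

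The citrate cycle list, the pathway that oxidises acetyl units, had 25 rows, 11 called higher and 1 lower in the Mxr1-labelled library, with a median log2 ratio of 0.70. With total counts 5 were higher and 3 lower, with upper-quartile factors 10 and 3, and with DESeq2 size factors 11 and 2. The highest were a malate dehydrogenase-like row (gene4503, log2 2.13), a succinate dehydrogenase cytochrome b subunit (gene1346, 2.04) and an aconitase row (gene108, 1.69). These rows were below all the carnitine genes, of which gene3523 was lowest at log2 3.49. The carnitine genes were chosen with their high values in this library known. The lowest were isocitrate or isopropylmalate dehydrogenase rows gene4765 (log2 -1.47) and gene2931 (-0.99) and a homocitrate synthase of lysine synthesis (gene650, -0.95). The patterns also took in other rows of lysine and leucine synthesis and assembly factors, and did not match citrate synthase (gene444). Citrate synthase, named above for its nearness to the members, was at log2 4.24 in the Mxr1-labelled library. That is above gene3523 and below the other carnitine genes, so the listed rows do not give the full range of this pathway. The Gal83-deletion library had 2 of the 25 higher and 4 lower (1 and 5 with upper-quartile factors), and the Gcn5-deletion library 1 higher and 1 lower (1 and 3 with total counts, 1 and 2 with upper-quartile factors).

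Of 8 rows listed for fatty acid beta-oxidation, the peroxisomal source of acetyl-CoA, 0 were called higher and 6 lower in the Mxr1-labelled library, with a median log2 ratio of -1.36, the opposite direction to the carnitine genes. Acyl-CoA oxidase (gene1403) was 12.6-fold lower, an enoyl-CoA hydratase row (gene1057) 4.12-fold, 3-ketoacyl-CoA thiolase (gene1962) 3.71-fold. The least lowered were a hydratase row (gene1569, log2 -1.09) and the fatty acyl-CoA synthetase rows gene896 (-0.10) and gene2187 (0.01). A further row, described as a potential long chain fatty acyl-CoA synthetase (gene5033), was called lower at log2 -1.59. It was named after its values were seen. Among the lower rows was 3-hydroxyisobutyryl-CoA hydrolase (gene3318, log2 -1.14, named after its values were seen), an enzyme that acts in valine breakdown. Its description places it in a family of enoyl-CoA hydratases and isomerases and does not name beta-oxidation. The hydratase rows gene1057 and gene1569 are described only by an enoyl-CoA hydratase domain, so their part in beta-oxidation is not stated either. The Gal83-deletion library had 1 of the 8 higher, gene5033 at log2 1.26, and 0 lower, and the Gcn5-deletion library had 0 higher and 2 lower.

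The pyruvate dehydrogenase list, the route to mitochondrial acetyl-CoA that does not pass through carnitine, had 7 rows, 2 higher and 2 lower in the Mxr1-labelled library. The higher ones were kinase rows, which in other organisms switch the complex off (gene4575, 8.98-fold, and gene533, 4.98-fold), and the lower ones were the subunits of the E1 enzyme (gene1465, 2.44-fold, and gene1997, 2.01-fold). The acetyltransferase subunit (gene360) was at log2 -0.64 and another kinase row (gene3958) at -0.03. The Gal83-deletion library had 1 of the 7 higher, the kinase row gene533 at log2 1.28, and 0 lower. The Gcn5-deletion library had 0 higher and 1 lower, the kinase row gene3958 at log2 -1.07 (2 lower with total counts). Of 4 gluconeogenesis rows 1 was higher in the Mxr1-labelled library, pyruvate carboxylase (gene1676, log2 1.26, uncalled with total counts), 2 were lower without Gal83 (3 with upper-quartile factors), and 1 was higher and 1 lower without Gcn5 (0 higher and 2 lower with total counts). Phosphoenolpyruvate carboxykinase (gene1609) was at log2 0.65, -2.86 and 1.29, fructose-1,6-bisphosphatase (gene3397) at 0.18, -1.61 and -1.69, and a row for the breakdown of that enzyme (gene2735) at -0.28, -0.53 and -0.87 in the Mxr1-labelled, the Gal83-deletion and the Gcn5-deletion library.

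**Figure D5:**
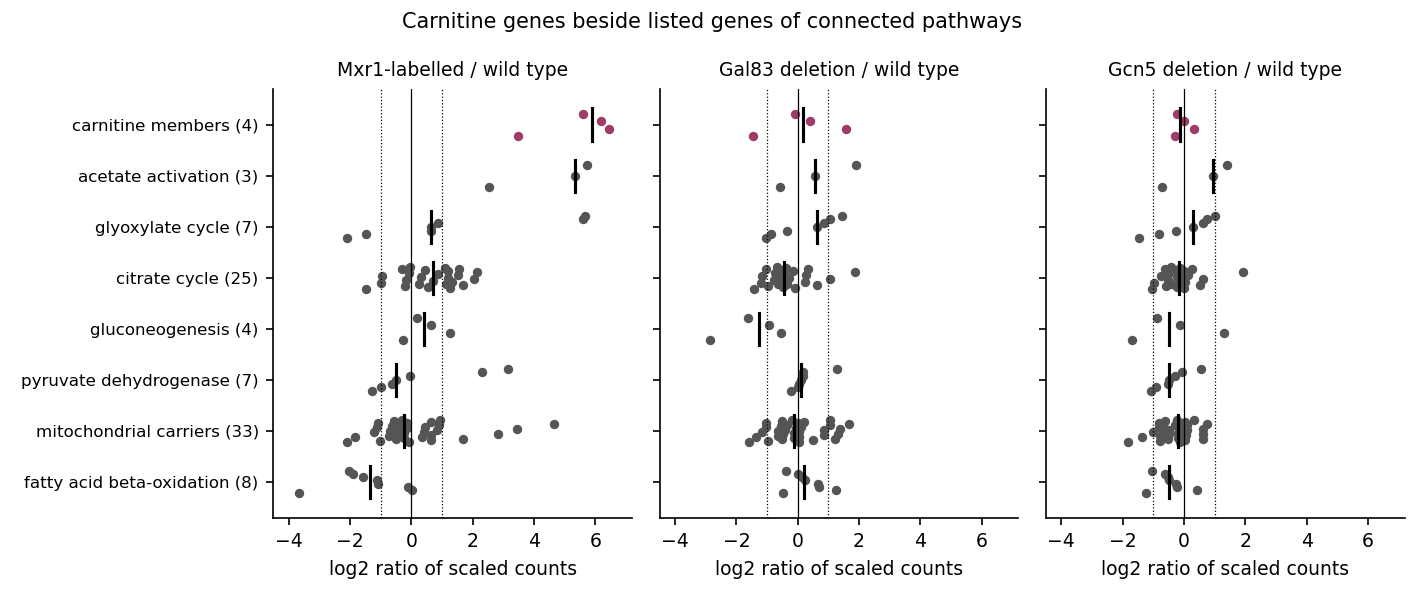
Each point is the log2 ratio of 1 gene to the wild type, by list, with the number of rows in parentheses and the list median as a black bar; dotted lines mark 2-fold and the height within a row has no meaning. In the Mxr1-labelled panel the carnitine genes (3.49 to 6.45) and acetate activation rows (2.52 to 5.73) lie to the right, and the beta-oxidation median is -1.36.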

How the data were processed

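RNA was ribosome-depleted with a kit made for bacteria, per the labels' protocols. The authors deposited raw read counts, whole numbers without normalization, in 1 table of 5427 rows and 4 library columns, tied to strains by the labels. DESeq2, featureCounts 1.6.4, Bowtie2, fastp 0.19.6 and bcl2fastq 2.19.0.316 are listed, per the submitters' processing notes, with no roles. Genome build, annotation and strandedness are not given in the sources used here. Reads without molecular identifiers may be duplicates, which would make counting intervals too narrow.

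The filter kept rows averaging 20 counts or more, 5420 in all with the 4 members among them. TMM factors came from edgeR 4.0.16 (R 4.3.3), ratios and exact Clopper-Pearson intervals from Python 3.11.15, scipy 1.17.1, numpy 2.4.6 and pandas 2.3.3, plots from matplotlib 3.10.9. No p-value was computed, with 1 library per strain. Alternatives were DESeq2 1.42.0 size factors, total counts, upper-quartile factors, the 20 highest rows left out of scaling, no filter, a mean of at least 100, 5 added to each count, a 4-fold rule and, chosen after seeing the data, protein-coding rows only.

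The members, lists and rules were chosen with earlier results of these data known. Lists were description patterns for other carnitine rows (0 found), acetate activation, glyoxylate cycle, beta-oxidation, mitochondrial carriers, citrate cycle, pyruvate dehydrogenase and gluconeogenesis. Lists of up to 6 rows are named whole, longer ones by the 3 highest and 3 lowest rows in the Mxr1-labelled library; the 5 nearest described rows of each member, the 10 nearest of their mean, and table neighbours are also named. The reference gene table at hand, of another strain, matched 0 locus tags and 0 protein accessions, so names are those of the deposited descriptions.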

Additional observations from a re-analysis of the deposited data

How the results depend on the processing

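Under the 8 alternatives of scaling, filter, added count and row type, 2 of the 24 member ratios changed their call and 3 changed sign, all with total counts. That setting took the median log2 ratio of all genes to -0.36, 0.14 and -0.34 for the Mxr1-labelled, the Gal83-deletion and the Gcn5-deletion library against the wild type, and called genes were then 18.4%, 61.1% and 15.9% higher ones, against 43.6%, 50.6% and 44.6% with TMM. The members' median log2 ratio with total counts was 5.54, 0.29 and -0.45 in these comparisons, 4.55 for Mxr1-labelled against Gal83 deletion and 0.75 for Gal83 against Gcn5 deletion, where 2 members were then higher and 0 lower. In the pairs of mutants, higher genes made up 15.1% of calls for Mxr1-labelled against Gal83 deletion and 82.6% for Gal83 against Gcn5 deletion with total counts, against 46.7% and 50.1% with TMM. With upper-quartile factors the members' medians were 5.77 for the Mxr1-labelled library and 0.0896 for the Gal83 deletion against the wild type, 4.99 and 5.88 for the Mxr1-labelled library against the Gal83 and Gcn5 deletions, and 0.23 for Gal83 against Gcn5 deletion; higher genes were 33.6% of the calls of the Mxr1-labelled library against the wild type. With the 4-fold rule 0 members were higher or lower in the Gal83-deletion library against the wild type and against the Gcn5 deletion, and the genes called numbered 225, 183 and 68 against the wild type, and 317, 230 and 231 for Mxr1-labelled against Gal83 deletion, Mxr1-labelled against Gcn5 deletion and Gal83 against Gcn5 deletion, against 991, 1173, 493, 1408, 960 and 1386 with the 2-fold rule. Total counts also turned the medians of the glyoxylate list in the Gcn5-deletion library (to -0.05 from 0.28) and of the mitochondrial carriers in the Gal83-deletion library (to 0.02 from -0.12). No paired analysis was possible because each strain had 1 library, and none could be left out. Depth limits no member: the lowest member count was 1735, so differences between cultures are the error not measured here.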

Other observations

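Rows that neighbour the carnitine genes in the table's order were also examined, since the labels do not say whether counting used strand. Of the 8 neighbours, 5 were called higher in the Mxr1-labelled library than in the wild type, where 7.97% of all genes were. The row before Crc1 (gene2068, a gamma-tubulin complex component) had 8270 counts in the Mxr1-labelled and 1135 in the Gal83-deletion library, with 619 in the Gcn5-deletion library and 1610 in the wild type, 9.18-fold higher in the first than in the wild type. The row after gene890 (gene891, enolase-like) had 10411, 1064, 735 and 1999 counts in the same order, 9.31-fold higher. The row after gene3523 (gene3524, a membrane transporter) was 3.01-fold higher, the row before gene4293 (gene4292, a DNA-binding protein) 2.61-fold and the row after Crc1 (gene2070, a mitochondrial import receptor subunit) 2.10-fold. The counts of the 8 neighbours in the Mxr1-labelled library were between 0.208% and 5.63% of those of the member they adjoin. Whether these counts include reads of the carnitine genes was not tested, and the table holds no coordinates. Among the rows with patterns nearest to the members, gene4075 and gene5221 likewise adjoin rows that were higher in that library, acetyl-CoA hydrolase (gene4076) and malate synthase 2 (gene5220).

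In the Gal83-deletion library, gene4292 was 4.33-fold higher, beside 2.97-fold for gene4293, while gene2068 was at log2 0.03 beside -1.45 for gene2069 and gene3524 at 0.09 beside -0.08 for gene3523. The row before gene3523 (gene3522, ribosomal protein S5) was 4.11-fold lower in that library. In the Gcn5-deletion library 0 of the 8 neighbours were called, where 4.06% of all genes were called higher and 5.04% lower. With so few rows, nothing is read from that count.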
